A study of Nothobranchius furzeri with 185 samples.

Results

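The complement cascade and the fibrinogen chains were followed through 6 gene symbols of the turquoise killifish *Nothobranchius furzeri*, an annual fish kept as a short-lived vertebrate: C4A, cfh, c5, C7, fga and fgg. Every locus of the gene table that carries one of these symbols was kept, whatever its values, which gave 7 loci of 23564. C4A (Nfu_g_1_002738), cfh (Nfu_g_1_002604), c5 (Nfu_g_1_017066) and fgg (Nfu_g_1_007204) have 1 locus each, and C7 is represented by the copy labelled C7 (1 of 2) (Nfu_g_1_021978). The symbol fga is carried by a shorter locus of 974 bases (Nfu_g_1_019160) and a longer one of 2098 bases (Nfu_g_1_019236), between which reads may have been exchanged in counting. Matching loci to these symbols used no measured value. The symbols themselves were chosen with earlier results of these data known.

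Complement is a set of plasma proteins that mark, open and clear microbes and damaged cells in a chain of cleavages. C4A is the killifish match to complement C4, which the classical and lectin pathways cleave to build their C3 convertase; cfh encodes factor H, which restrains the alternative pathway on host surfaces; c5 encodes C5, whose cleavage releases a chemoattractant peptide and starts the terminal pathway; and C7 joins the membrane attack complex. Fibrinogen is assembled from alpha (fga), beta (fgb) and gamma (fgg) chains and is turned into the fibrin of a clot by thrombin. In vertebrates most of these proteins are secreted by hepatocytes, and several rise in the acute phase of inflammation.

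RNA sequencing libraries of 185 samples fall into 25 groups. Fish given rotenone, an inhibitor of mitochondrial complex I, at 15 pM in DMSO for 4 weeks up to the age of 27 weeks were compared with fish given DMSO alone to the same age, and a further DMSO group was 9 weeks old. Brain, liver and skin were taken from 5 fish in each of these groups. Untreated livers and skins came from fish of 5, 12, 20, 27 and 39 weeks, with 5 libraries per tissue and age. Tail fin clips were taken from 45 untreated fish at 10 weeks and again at 20 weeks. The fish were then followed to natural death: group3 died at 57.3 to 71.9 weeks, group2 at 45.1 to 50.3 weeks and group1 at 28.7 to 36.4 weeks, with 15 fish each. The labels name neither strain nor sex. Libraries held 14970721 to 54947376 reads assigned to genes, with a median of 30507776. Levels are given as RPKM, reads per kilobase of gene scaled to library size, and differences as log2 fold changes with their standard errors, tested by edgeR's quasi-likelihood test on the read counts with Benjamini-Hochberg adjustment over all genes and called at an adjusted p under 0.05. Where groups are said not to overlap, the share of all genes without overlap is not given. Such statements describe the values only.

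Several libraries stand apart, and 1 of them bears on nearly every skin value below. The 12-week skin of fish JM109 held 18947 CPM (counts scaled to library size) from 16 hepatocyte marker loci, such as apolipoproteins, whereas the other 12-week skins held at most 1755. Results that include it are given with and without it. The skins of the rotenone fish MR30 and the DMSO fish MC7 held 1521 and 734 CPM from testis germ-cell markers, against group medians of 3.06 with rotenone and 10.5 with DMSO. The 5-week livers of JM103 and JM100 and the DMSO livers of MC7 and MC8 were known from earlier work on these data to stand apart, and were each left out as a pair in an alternative fit. No hepatocyte marker locus was at 0 in all libraries of any liver, skin or brain group, and their summed level was 35146 to 187804 CPM in livers.

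**Figure D1:**
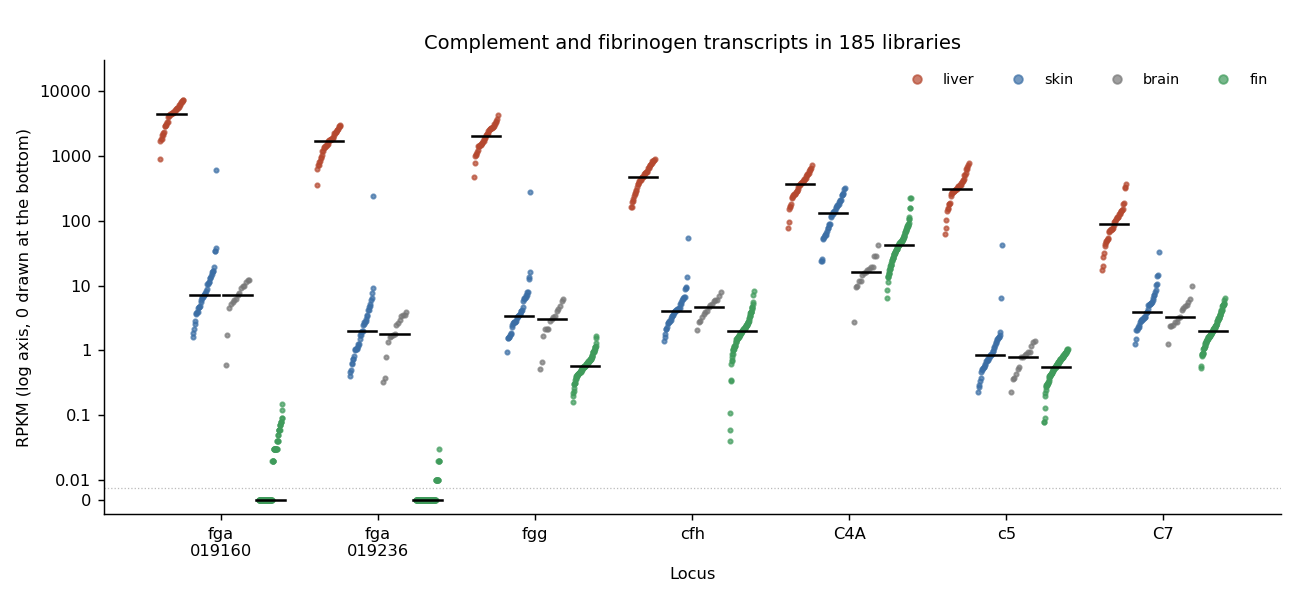
RPKM of the 7 loci (log axis) in every liver, skin, brain and fin library, with 1 point per library and a bar at each tissue's median. All loci have their highest median in liver. Outside it C4A stands above the other loci, with medians of 131 RPKM in skin and 42.1 RPKM in fin, while both fga loci have a median of 0 in fins.

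In liver the fibrinogen chains were the most abundant of the loci. The shorter fga locus had a median of 4424 RPKM over the 40 livers and ranked number 13 of all 23564 loci, fgg had 2020 RPKM and ranked number 56, and the longer fga locus had 1705 RPKM and ranked number 79. The complement loci followed, with medians of 468 RPKM for cfh, 362 RPKM for C4A, 312 RPKM for c5 and 90.0 RPKM for C7. Neighbours in this order overlapped in range: cfh spanned 160 to 879 RPKM, C4A 76.1 to 719 RPKM, c5 63.0 to 766 RPKM and C7 17.6 to 369 RPKM.

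Outside the liver only C4A kept a high level. Its median was 131 RPKM in skin, where it ranked number 379 of all loci, 42.1 RPKM in fin and 16 RPKM in brain. The highest of the other medians in these tissues was 7.27 RPKM, for the shorter fga locus in skin. In skin the other medians were 4.12 RPKM for cfh, 3.96 RPKM for C7, 3.46 RPKM for fgg, 1.97 RPKM for the longer fga locus and 0.845 RPKM for c5. In brain they were 7.11 RPKM for the shorter fga locus, 4.63 RPKM for cfh, 3.24 RPKM for C7, 3.06 RPKM for fgg, 1.8 RPKM for the longer fga locus and 0.780 RPKM for c5. In fin C7 had 2.03 RPKM, cfh 2.00 RPKM, fgg 0.580 RPKM and c5 0.560 RPKM.

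The fga loci were nearly absent from fin clips. The shorter locus had 0 reads in 51 of 90 fin libraries and at most 5 reads in any, and the longer one had 0 reads in 76 of 90 and at most 2. A count of 0 allows up to 3 reads by counting error alone. In the same libraries fgg had 8 to 154 reads.

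Relative to fgg in the same library, the other fibrinogen loci and c5 had median proportions that moved less between liver, skin and brain than those of C4A, C7 and cfh. The shorter fga locus had a median of 2.04 times the fgg RPKM in liver, against 2.11 times in skin and 2.42 times in brain. The longer one had 0.818 times in liver, against 0.545 times in skin and 0.738 times in brain. For c5 the ratio was 0.187 in liver, against 0.230 in skin, 0.258 in brain and 1.01 in fin. Both fga loci had a median ratio of 0 in fin. The ratio of C4A to fgg was 0.181 in liver, against 29.6 in skin, 4.85 in brain and 69.5 in fin, and that of C7 was 0.0439 in liver, against 1.00 in skin, 1.28 in brain and 3.79 in fin. The median proportions of C4A, C7 and c5 were thus lowest in liver, as was that of cfh with 0.225 in liver, against 1.15 in skin, 1.45 in brain and 3.70 in fin. These ratios are descriptions with no test.

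Which tissue holds these transcripts was tested in the 5 DMSO fish of 9 weeks, from each of which liver, skin and brain were sequenced. Against brain, all 7 loci were higher in liver, where 36.1% of the 20709 genes tested were higher and 79.1% differed in either direction. The excess was smallest for C4A, at a log2 fold change of 6.42 ± 0.51 (edgeR, adjusted p = 6.39e-09), and largest for the longer fga locus, at 12.07 ± 0.81 (adjusted p = 8.48e-10). Against skin, all 7 were again higher in liver, where 29.6% of genes were and 64.1% differed in either direction. C4A differed by 2.62 ± 0.43 (edgeR, adjusted p = 4.68e-05), and the other 6 loci by 6.04 to 10.78.

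Skin also exceeded brain. All 7 loci passed as higher in skin, as did 36.1% of genes (75.1% in either direction), and C4A had by far the largest difference at 3.79 ± 0.45 (edgeR, adjusted p = 1.06e-06), a 13.9-fold excess. C7 differed by 0.95 ± 0.24, cfh by 1.23 ± 0.26 and c5 by 1.56 ± 0.29. The fibrinogen loci rested on few fish: without fish MC4 the log2 fold change of fgg was 0.89 (adjusted p = 0.0502), of the shorter fga locus 0.73 (adjusted p = 0.162) and of the longer one 0.50 (adjusted p = 0.315). With the fish as a block 5 loci passed, since the fga loci had adjusted p = 0.0697 and 0.122. Without MC3 the adjusted p was 0.0671 for fgg, 0.113 for the shorter and 0.136 for the longer fga locus, and without MC1 it was 0.0585 and 0.0763 for the fga loci. In tissue samples, fewer cells of a type and less RNA per cell cannot be told apart.

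**Figure D2:**
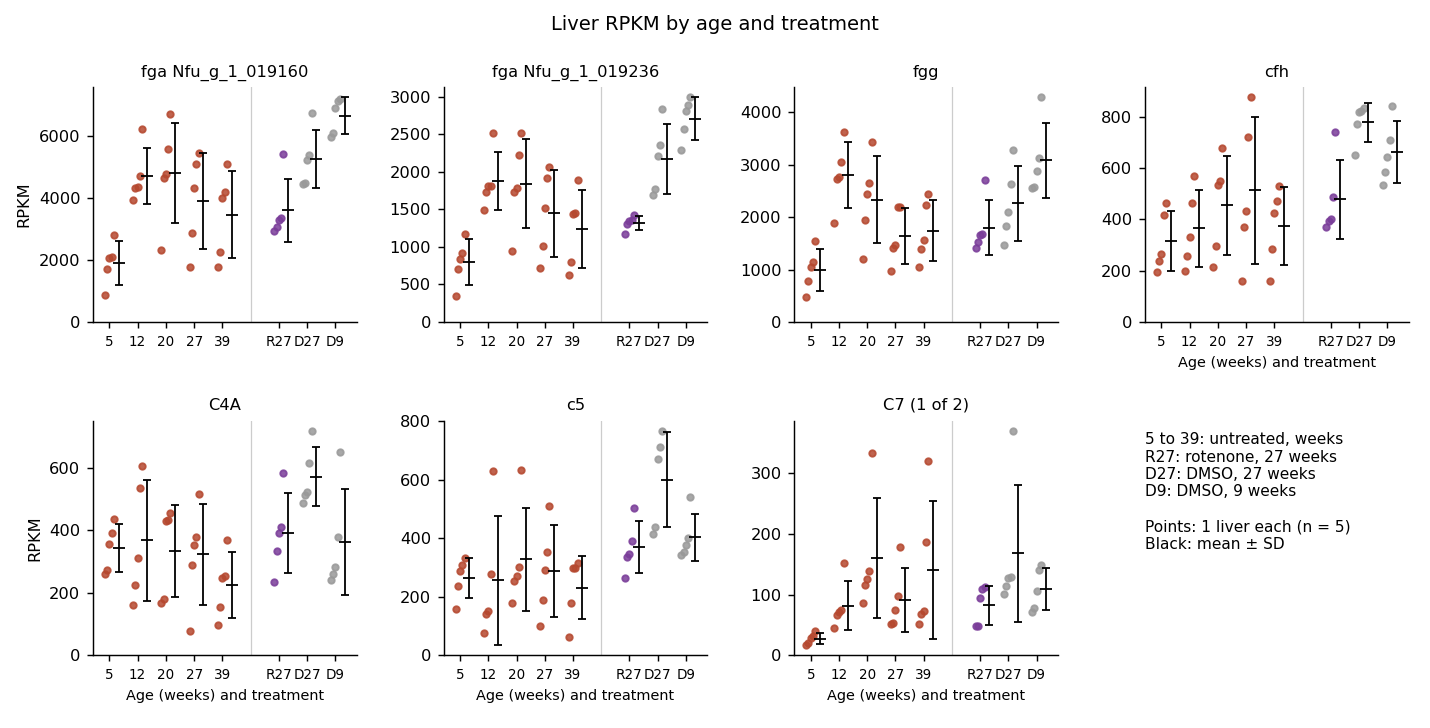
RPKM of members in each liver library by group, with points for fish and black marks for group means with their SD. Ages of untreated fish run from 5 to 39 weeks, and rotenone stands left of DMSO at 27 weeks. All 12-week livers lie above all 5-week livers for C7, fgg and fga, a description given without the share of all genes that separate so.

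Maturation of the liver was followed by setting 12-week against 5-week fish. All 3 fibrinogen loci and C7 were higher at 12 weeks, which makes 4 of the 7 loci, where 13.5% of the 17618 genes tested were called in either direction. fgg measured 2724, 3054, 2762, 3616 and 1885 RPKM in 12-week livers, against 472, 1138, 782, 1542 and 1042 RPKM in 5-week livers. Every 12-week liver thus lay above every 5-week liver, and the log2 fold change of 1.97 ± 0.50 (edgeR, adjusted p = 0.0128) was the largest of the members.

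The fga loci, which encode the alpha chain, followed the same order. The shorter locus had 3943, 6236, 4369, 4731 and 4319 RPKM in 12-week livers, against 875, 2081, 2104, 2823 and 1713 RPKM in 5-week livers. Again no 12-week liver overlapped the young ones, and the log2 fold change was 1.68 ± 0.52 (edgeR, adjusted p = 0.0338). The longer locus averaged 1871 ± 385 RPKM at 12 weeks and 800 ± 303 RPKM at 5 weeks (SD, n = 5 each), a log2 fold change of 1.59 ± 0.52 (edgeR, adjusted p = 0.0434). The beta chain gene fgb, no member but the third subunit, had a log2 fold change of 1.82 ± 0.56 (edgeR, adjusted p = 0.0331).

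C7 had 44.2, 74.3, 71.6, 67.0 and 152 RPKM in 12-week livers, against 17.6, 31.7, 40.5, 27.6 and 19.7 RPKM in 5-week livers. The groups did not overlap, and fish JM115 stood above the other 12-week livers. Its log2 fold change was 1.89 ± 0.48 (edgeR, adjusted p = 0.0125). The other complement members did not pass: C4A had a log2 fold change of 0.44 ± 0.52, c5 of 0.14 ± 0.56 and cfh of 0.56 ± 0.49. For c5, the 12-week livers alone ran over an 8.21-fold span, with 76.8, 279, 150, 141 and 631 RPKM, against 159, 236, 309, 333 and 287 RPKM in 5-week livers.

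Calls of the fga loci were close to the threshold. The shorter locus lost its call without any 1 of JM98, JM100, JM101, JM104, JM105, JM106 or JM107, with log2 fold changes of 1.45 to 1.71 and adjusted p of 0.0555 to 0.0781. The longer locus lost it without any of these or JM103, with adjusted p of 0.0509 to 0.0950. Leaving out JM103 and JM100 together left C7 as the 1 locus called and gave fgg a log2 fold change of 1.64 (edgeR, adjusted p = 0.0797). C7 kept its call in all alternatives run. The summed hepatocyte markers ranged over 105246 to 187804 CPM in 12-week livers and over 96724 to 183209 in 5-week livers, with 1 of 15 tested marker loci called, and their part in the result was not tested.

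In the oldest livers C7 remained above the 5-week level while the other members did not pass. C7 had 51.3, 320, 73.3, 186 and 68.7 RPKM at 39 weeks, against the 17.6 to 40.5 RPKM of 5-week livers. The groups did not overlap, although the 39-week livers themselves spread 6.24-fold. Its log2 fold change was 2.07 ± 0.48 (edgeR, adjusted p = 0.00633), 1 of the 7 loci, where 12% of genes were called. This comparison shares the 5-week livers with the one above.

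The fibrinogen chains were intermediate at 39 weeks. fgg had 1054, 2240, 1572, 1391 and 2446 RPKM in 39-week livers, which overlapped both the 5-week and the 12-week range, and its log2 fold change against 5 weeks was 0.70 ± 0.48 (edgeR, adjusted p = 0.364). The shorter fga locus averaged 3474 ± 1397 RPKM at 39 weeks and 1919 ± 709 RPKM at 5 weeks (SD, n = 5 each). C4A averaged 224 ± 105.1 RPKM at 39 weeks and 343 ± 76.3 RPKM at 5 weeks (SD, n = 5 each), with a log2 fold change of -0.64 ± 0.52 (edgeR, adjusted p = 0.460).

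Between 39 and 12 weeks no member was called in liver, nor was any of the 17618 genes tested (0%) by edgeR. At an unadjusted p under 0.05 there were 3026 genes, and DESeq2 called 508, no member among them. The largest member difference was that of fgg, at -1.27 ± 0.49 (edgeR, adjusted p = 0.213). Over all 5 ages, C7 (adjusted p = 0.0309) and fgg (adjusted p = 0.0499) passed edgeR's test for any difference between ages, as did 12.9% of genes. Both lost that call without JM103 and JM100, and leaving out single livers gave 0 to 2 called members.

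Over the 5 ages C7 was also the locus with isolated high livers. At 20 weeks fish JM75 had 333 RPKM where the other 4 fish had 86.1 to 140 RPKM, and the same liver had 632 RPKM of c5 where the others had 180 to 302 RPKM. Macrophage markers, summed over 12 loci, were 1089 CPM in that liver, the highest of its group. Its summed hepatocyte markers were 51904 CPM, the lowest of its group. In the 12-week liver of JM115, also high in C7, macrophage markers were 670 CPM, the highest of that group. The 27-week DMSO liver of MC9 had 369 RPKM of C7 and 1018 CPM of macrophage markers, below the 1684 CPM of MC7. The part of either list in the result was not tested.

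Livers of DMSO fish showed no member called between 27 and 9 weeks, where 12.4% of the 16750 genes were. C4A averaged 572 ± 95.4 RPKM at 27 weeks and 362 ± 169 RPKM at 9 weeks, and the shorter fga locus 5281 ± 936 RPKM at 27 weeks and 6675 ± 594 RPKM at 9 weeks (SD, n = 5 each). Their log2 fold changes were 0.49 ± 0.27 (edgeR, adjusted p = 0.241) and -0.49 ± 0.33 (edgeR, adjusted p = 0.362).

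Other complement and coagulation genes were read from 4 lists of related genes, none of them a member. At 12 against 5 weeks 6 were higher and 1 lower of 55 tested in liver, or 12.7% called, close to the 13.5% of all genes. The higher ones were masp2 (log2 fold change 1.57 ± 0.42), the protease of the lectin pathway that cleaves C4, f2 (1.47 ± 0.48), which encodes prothrombin, C5AR1 (1.65 ± 0.41), the receptor of the C5 peptide, cfhl2 (1.74 ± 0.50), f3b (1.18 ± 0.24), a tissue factor gene, and fgb. The lower one was a CFI locus (-3.86 ± 0.86), which encodes the protease factor I. All 7 had adjusted p between 0.00273 and 0.0444 by edgeR.

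At 39 against 5 weeks 8 were higher and 1 lower of 55, or 16.4% called, where 12% of all genes were. The chains of the C1q recognition molecule were prominent among them: c1qb rose by 2.59 ± 0.50, c1qc by 2.47 ± 0.64 and c1qa by 2.08 ± 0.61 on the log2 scale (edgeR, adjusted p = 0.00163, 0.0141 and 0.0282). C5AR1 rose by 2.48 ± 0.42, CFP, which encodes properdin, by 2.43 ± 0.72 and masp2 by 1.70 ± 0.42. The CFI locus fell by 3.31 ± 0.83, and f3b and f3a were the other genes that rose. C1q and C5AR1 are also made by macrophages, whose summed markers ranged over 276 to 617 CPM at 39 weeks and over 241 to 529 at 5 weeks. Such a sum is weighted to the most abundant loci. The mean log2 CPM over the same marker loci was 2.85 to 3.83 at 39 weeks and 2.29 to 3.26 at 5 weeks. The part of these markers in the result was not tested.

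**Figure D3:**
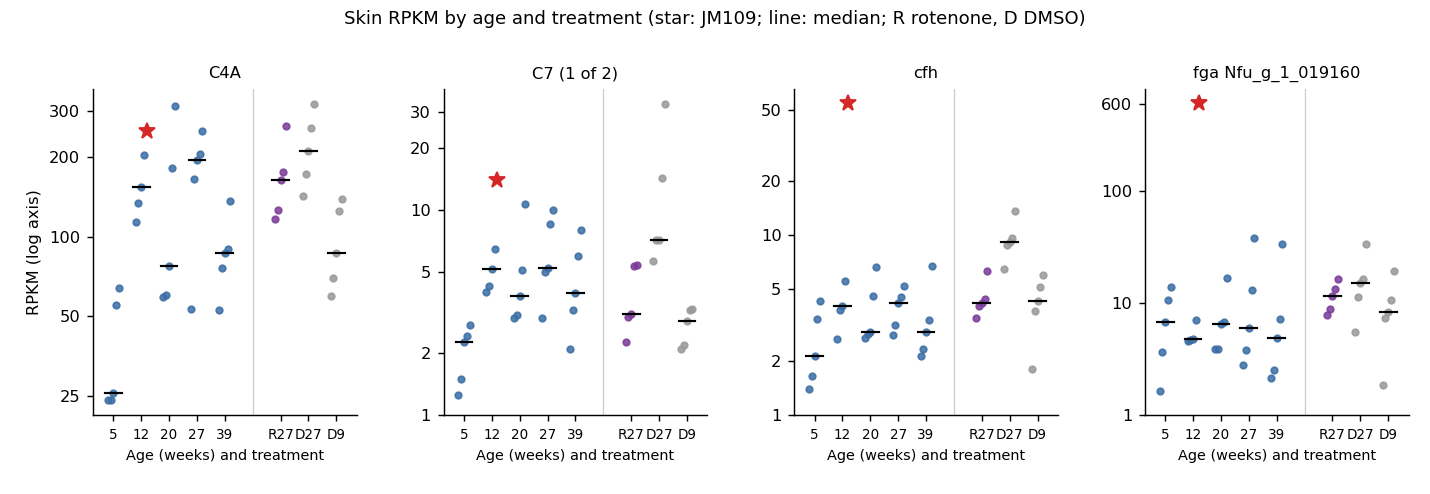
RPKM (log axis) of C4A, C7, cfh and the shorter fga locus in each skin library by group, with bars at medians; rotenone stands left of DMSO at 27 weeks. C4A and C7 are lowest at 5 weeks, and the 12-week skin of JM109 (251 RPKM of C4A, 605 RPKM of fga) is far above its group for fga.

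In skin C4A and C7 were the members called higher at 12 than at 5 weeks both with and without JM109. With JM109, all 7 loci passed as higher at 12 than at 5 weeks, where 31.2% of 18925 genes were called. Without JM109, 2 of the 7 passed, C4A and C7, a share close to the 26.5% of 19054 genes called.

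C4A measured 113, 251, 204, 135 and 155 RPKM in 12-week skins, of which JM109 is the second, against 25.5, 24, 24.2, 63.7 and 55.3 RPKM in 5-week skins. Every 12-week skin lay above every 5-week skin, with or without JM109. C4A thus had a log2 fold change of 2.09 ± 0.46 with JM109 (edgeR, adjusted p = 0.00188) and 1.94 ± 0.48 without it (adjusted p = 0.00532).

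C7 had 3.97, 14, 5.17, 6.43 and 4.28 RPKM in 12-week skins, JM109 again the second, against 1.49, 1.25, 2.27, 2.44 and 2.74 RPKM in 5-week skins. The groups did not overlap. Its log2 fold change was 1.64 ± 0.45 with JM109 (edgeR, adjusted p = 0.00852) and 1.22 ± 0.43 without it (adjusted p = 0.0398). Summed macrophage markers in skin were 420 to 767 CPM at 12 weeks and 242 to 474 CPM at 5 weeks; their part in the result was not tested.

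The other 5 loci rested on JM109. That skin held 605 RPKM of the shorter fga locus where the other 12-week skins held 4.54 to 7.11 RPKM. It held 280 RPKM of fgg against 2.33 to 2.74 RPKM in the others, and 41.6 RPKM of c5 against 0.600 to 0.890 RPKM. Without JM109 the log2 fold changes of 12 over 5 weeks were -0.54 for the shorter fga locus (edgeR, adjusted p = 0.639), -0.81 for the longer one (0.390), -0.23 for fgg (0.816), 0.50 for c5 (0.430) and 0.57 for cfh (0.275).

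The excess of JM109 over the median of the other 12-week skins amounted to similar shares of the 12-week liver level for most members. It was 12.7% for the shorter fga locus, 12.6% for the longer one, 9.86% for fgg, 16% for c5, 13.8% for cfh and 11.4% for C7. For C4A it was 28.9%. The other 12-week skins already ran over 113 to 204 RPKM of C4A, so this last excess is set against a wide spread. JM109 has no liver library, so the shares are of the mean of other fish. For c5 that mean was 256 ± 222 RPKM (SD), so its share is loosely set.

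At 39 weeks C4A and C7 in skin were still above 5 weeks, which is 2 of 7 loci, below the 54.5% of genes called. C4A had 76.2, 89.8, 52.8, 86.6 and 137 RPKM in 39-week skins, and C7 had 3.95, 3.24, 8.01, 2.10 and 5.94 RPKM. In each case 1 old skin fell within the 5-week range. The log2 fold changes were 1.54 ± 0.46 for C4A (edgeR, adjusted p = 0.00659) and 1.54 ± 0.45 for C7 (adjusted p = 0.00587), and both calls held in all alternatives run. With only these 2 ages in the fit, which leaves JM109 out, C4A had 1.58 ± 0.34 (edgeR, adjusted p = 0.00292). C7 had 1.57 ± 0.38 there (edgeR, adjusted p = 0.00531), and no other member passed. The closest was c5, at 1.04 ± 0.49 (edgeR, adjusted p = 0.0974). Skins of 20 and 27 weeks spread widely in C4A, with 77.5, 182, 59.1, 59.9 and 312 RPKM at 20 weeks and 252, 207, 53.1, 195 and 165 RPKM at 27 weeks.

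Between 39 and 12 weeks, 5 members were lower at 39 weeks with JM109 (49.4% of genes called) and none without it (44% called). C4A and C7 were among those not called in either fit. Without JM109 their log2 fold changes were -0.40 and 0.32 (edgeR, adjusted p = 0.510 and 0.572). Over all 5 ages, 7 members passed edgeR's test for any difference with JM109 (66.5% of genes), and without it C4A (adjusted p = 0.00364) and C7 (adjusted p = 0.0130) passed (63% of genes).

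For C4A the 39-week fold changes over 5 weeks had opposite signs in liver and skin, and that difference was itself tested. The log2 fold change of 39 over 5 weeks in liver minus that in skin was -2.19 ± 0.73 on the log2 scale (edgeR, adjusted p = 0.0267), 1 of 7 members, where 20.7% of genes were called. Within each tissue, the liver's own value of -0.64 did not pass and the skin's of 1.54 did. Summed hepatocyte markers were 35146 to 142585 CPM in 39-week livers and 96724 to 183209 CPM in 5-week livers; their part in the result was not tested. The fit held JM109 among its libraries, and no fit left that skin out. The fit also took the libraries as independent, although 4 fish of 39 weeks and 2 of 5 weeks gave both tissues. With the fish as a block, which leaves the comparison to those fish, the call was lost at -2.10 ± 0.77 (edgeR, adjusted p = 0.121). It was also lost without the 5-week liver of JM97 (-1.91, adjusted p = 0.0658) and without the 39-week skin of JM24 (-1.95, adjusted p = 0.0504).

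Of the other complement and coagulation genes in skin, 14 were higher and 4 lower of 53 at 39 against 5 weeks. That is 34% called, below the 54.5% of all genes. The fit holds JM109 among its libraries, and this share was not computed without it. C1q chains were again among them, with c1qb up by 2.39 ± 0.29, c1qa by 1.65 ± 0.38 and c1qc by 1.31 ± 0.44 on the log2 scale. C6 (1 of 2) (Nfu_g_1_021979), a membrane attack component that acts just before C7, rose by 1.98 ± 0.25 (edgeR, adjusted p = 9.30e-07). The regulator gene clu, which encodes clusterin, rose by 1.25 ± 0.19 and C5AR1 by 1.62 ± 0.28, while MASP1, a lectin pathway protease gene, fell by 3.04 ± 0.88. In coagulation, f3a rose by 2.69 ± 0.46, pros1, which encodes protein S, by 1.76 ± 0.30 and vwf by 0.80 ± 0.18, and f13a1b, a factor XIII gene, fell by 0.86 ± 0.13. Summed macrophage markers were 335 to 975 CPM in 39-week skins and 242 to 474 CPM in 5-week skins; their part in these values and in those of C4A and C7 was not tested.

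At 12 against 5 weeks without JM109, 6 of these genes were higher and 2 lower of 53, or 15.1% called, below the 26.5% of all genes. With JM109, 37 were higher and 3 lower. The genes called without JM109 included clu (1.21 ± 0.20), C5AR1 (1.47 ± 0.29), c1qb (1.18 ± 0.30), pros1 (1.25 ± 0.29), vwf (0.99 ± 0.19) and f3b (0.86 ± 0.21), all higher at 12 weeks, and CFI (-3.74 ± 0.60) and CD59 (2 of 2) (-1.85 ± 0.62), both regulators, lower.

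Adult DMSO fish gave a second view of age, in brain and skin. C7 and cfh were called higher at 27 than at 9 weeks in both tissues. In brain these were 2 of 7 members, where 2.09% of 20132 genes were called; that share was 16.5% without MC10 and 0.518% without MC5. The count was the same in skin, where 10.5% of 19285 genes were called.

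In brain C7 measured 4.93, 6.27, 4.26, 5.62 and 9.78 RPKM at 27 weeks, against 2.78, 2.45, 2.4, 2.74 and 1.25 RPKM at 9 weeks. All older brains lay above all younger ones, with a log2 fold change of 1.43 ± 0.26 (edgeR, adjusted p = 0.0143), with adjusted p = 0.0682 when only these groups entered the fit. Brain cfh had 3.66, 4.63, 5.98, 5.90 and 7.01 RPKM at 27 weeks, against 3.89, 2.81, 2.08, 2.72 and 3.31 RPKM at 9 weeks. A single pair of fish overlapped, and the log2 fold change was 0.90 ± 0.20 (edgeR, adjusted p = 0.0338).

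The brain call of cfh was lost without any 1 of MC2 to MC9, with log2 fold changes of 0.79 to 0.95 and adjusted p of 0.0504 to 0.0914. C4A had 9.91, 42.6, 28.1, 16 and 28.4 RPKM in 27-week brains, against 9.64, 11.7, 14.7, 18.3 and 2.77 RPKM in 9-week brains. The groups overlapped: 2 of the older brains, among them the 9.91 RPKM of MC10, lay within the range of the younger ones. Its log2 fold change was 1.13 ± 0.41 (edgeR, adjusted p = 0.161), and 1.33 without MC10 (adjusted p = 0.0384). Brain macrophage markers ranged over 114.8 to 238 CPM at 27 weeks and over 85.2 to 151 at 9 weeks, and their part in the result was not tested.

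In skin C7 had 5.62, 7.14, 7.16, 33.2 and 14.3 RPKM in 27-week DMSO fish, against 3.27, 2.87, 2.10, 3.28 and 2.20 RPKM in 9-week DMSO fish. All older skins were higher, 1 of them by far. The log2 fold change of 2.03 ± 0.43 (edgeR, adjusted p = 0.0124) kept its call in all alternatives run, and was 1.36 without MC8 (adjusted p = 0.0203), the skin with 33.2 RPKM. Skin cfh had 6.47, 8.83, 9.60, 9.15 and 13.6 RPKM at 27 weeks, against 3.79, 1.8, 5.13, 5.99 and 4.33 RPKM at 9 weeks. The groups did not overlap either. Its log2 fold change was 0.90 ± 0.27 (edgeR, adjusted p = 0.0482), which was lost without any 1 of MC1 to MC9 (adjusted p of 0.0528 to 0.127).

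C4A in skin also separated the DMSO ages without passing the test. It averaged 221 ± 69.9 RPKM at 27 weeks and 96.3 ± 34.6 RPKM at 9 weeks (SD, n = 5 each), with no overlap and a log2 fold change of 0.93 ± 0.30 (edgeR, adjusted p = 0.0654). It passed without MC1 (1.10, adjusted p = 0.0467), without the skins of MC7 and MR30 (1.05, adjusted p = 0.0270) and by DESeq2 (0.95, adjusted p = 0.0204). For c5 the log2 fold change was 1.05 and did not pass. Leaving out MC10 made it 1.27 (adjusted p = 0.0392), and leaving out MC9, which had 6.32 RPKM where the other 27-week skins had 0.770 to 1.92 RPKM, made it 0.38 (adjusted p = 0.397). Hepatocyte markers in skin had a median of 2421 CPM at 27 weeks and 1195 at 9 weeks, and macrophage markers 783 at 27 weeks and 388 at 9 weeks. Their part in the result was not tested.

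The other complement and coagulation genes called in these fish were all higher at 27 weeks. In brain there were 6 of 54, or 11.1%, where 2.09% of all genes were called (241 higher and 179 lower): c1qc (1.66 ± 0.24), C1S (1 of 2) (1.06 ± 0.24), a protease of the C1 complex, ITGAM (1.64 ± 0.39), a complement receptor chain, cfhl2 (0.90 ± 0.18), CFP (0.74 ± 0.15) and vwf (0.45 ± 0.10). The share of all genes was 16.5% without MC10 and 0.518% without MC5. The share of these related genes was not computed in those fits, so the brain shares are not firmly set apart. In skin there were 6 of 55, or 10.9%, close to the 10.5% of all genes (716 higher and 1303 lower): masp2 (1.76 ± 0.52), C2 (1.47 ± 0.44), CFI (Nfu_g_1_003463; 2.28 ± 0.62), CFP (1.13 ± 0.26), C5AR1 (0.88 ± 0.19) and c1qa (0.78 ± 0.24). In liver, where no member was called, there were 4 of 55, or 7.27%, below the 12.4% of all genes (785 higher and 1287 lower): C5AR1 (1.56 ± 0.41), masp2 (0.99 ± 0.24), f13a1b (0.92 ± 0.23) and C6 (1 of 2) (Nfu_g_1_003560; 0.84 ± 0.26). Summed hepatocyte markers were 61503 to 130167 CPM in 27-week livers and 135918 to 172090 CPM in 9-week livers, without overlap. Macrophage markers were 286 to 1684 CPM at 27 weeks and 249.5 to 1015 CPM at 9 weeks, and the part of either list was not tested.

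**Figure D4:**
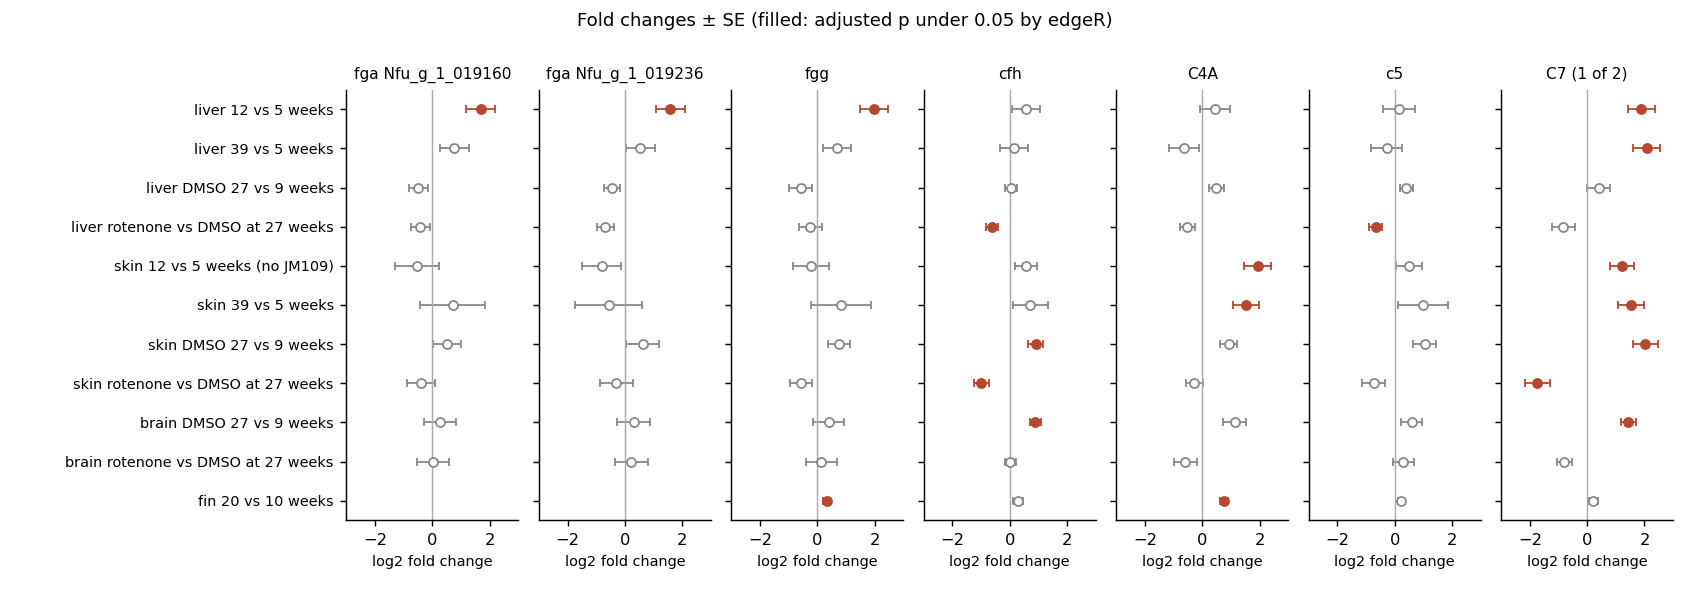
Log2 fold changes of the 7 loci (edgeR) with standard errors on the x axis, with a panel for each locus and a row for each comparison; filled points have an adjusted p under 0.05. Skin comparisons that include the 12-week age are drawn without JM109, and the rotenone and DMSO age comparisons share the 27-week DMSO fish.

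Rotenone was set against DMSO at 27 weeks, and these comparisons use the same 27-week DMSO fish as those above. In skin C7 and cfh were lower in rotenone fish, 2 of 7 members, where 12.3% of genes were called. C7 had 5.39, 3.01, 3.12, 2.26 and 5.36 RPKM in rotenone skins, against the 5.62 to 33.2 RPKM of DMSO skins listed above. All rotenone skins lay below all DMSO skins, and C7 had a log2 fold change of -1.74 ± 0.43 (edgeR, adjusted p = 0.0172), with adjusted p = 0.0556 when only these groups entered the fit. Without the DMSO skin of MC8, which had the 33.2 RPKM, it was -1.07 (adjusted p = 0.0284).

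Skin cfh had 4.17, 6.29, 4.06, 3.47 and 4.40 RPKM in rotenone fish, against 6.47 to 13.6 RPKM in DMSO fish of the same age. Here too the groups did not overlap, and the rotenone values lay within the range of 1.8 to 5.99 RPKM of 9-week DMSO skins except for the highest. The log2 fold change was -0.99 ± 0.27 (edgeR, adjusted p = 0.0294). It was lost without MC6, MC9, MR26, MR28 or MR29 (adjusted p of 0.0533 to 0.0854). Untreated skins of 27 weeks had 5.20, 4.17, 4.51, 2.77 and 3.15 RPKM of cfh, all below the DMSO skins of that age. For C7 they had 2.97 to 10.04 RPKM, which overlapped both the rotenone and the DMSO skins. Untreated fish were not tested against either group. Hepatocyte markers in skin had a median of 1387 CPM with rotenone and 2421 with DMSO, and macrophage markers 504 with rotenone and 783 with DMSO; their part in the result was not tested.

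In liver c5 and cfh were lower with rotenone, 2 of 7 members, a share close to the 26% of the 16750 genes called. c5 had 265, 336, 391, 348 and 505 RPKM in rotenone livers, against 416, 711, 439, 672 and 766 RPKM in DMSO livers. A single rotenone liver reached into the DMSO range. For c5 this gave a log2 fold change of -0.66 ± 0.23 (edgeR, adjusted p = 0.0433). Liver cfh had 392, 370, 741, 487 and 403 RPKM with rotenone, against 650, 772, 824, 834 and 818 RPKM with DMSO. Here too 1 rotenone liver overlapped the DMSO livers, and the log2 fold change was -0.63 ± 0.22 (edgeR, adjusted p = 0.0436).

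Both liver calls were at the edge of the threshold. Each was lost without any of 7 livers of the 10 for c5 (MC6, MC8, MC9, MR27, MR28, MR29 or MR30; adjusted p of 0.0504 to 0.111) and 6 for cfh (MC6, MC8, MC10, MR27, MR29 or MR30; adjusted p of 0.0677 to 0.113). With only the compared groups in the fit both were lost too (edgeR, adjusted p = 0.0940 for c5 and 0.0857 for cfh). All rotenone livers lay below all DMSO livers for the longer fga locus, which averaged 1322 ± 91.1 RPKM with rotenone and 2172 ± 468 RPKM with DMSO (SD, n = 5 each), yet it did not pass (-0.68, adjusted p = 0.0888). It passed without MC7 (-0.84, adjusted p = 0.0374) and by DESeq2 (-0.69, adjusted p = 0.0461). The shorter fga locus (-0.43, adjusted p = 0.350) and C7 (-0.84, adjusted p = 0.128) did not pass either. Without the rotenone liver of MR26, which had 5419 RPKM of the shorter fga locus where the other rotenone livers had 2951 to 3361 RPKM, that locus passed (-0.84, adjusted p = 0.0263), as did the longer one (-0.84, adjusted p = 0.0377) and C7 (-1.17, adjusted p = 0.0407). Leaving out a DMSO liver instead gave values as small as -0.21 for the shorter locus (without MC10, adjusted p = 0.666), -0.45 for the longer one (without MC10, 0.222) and -0.45 for C7 (without MC9, 0.367).

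The liver of MR26 was also unusual in the proportion of the fga loci. Its shorter locus had 4.03 times the RPKM of the longer one, where the ratio was 2.28 to 2.90 in the other 39 livers. Hepatocyte markers ranged over 99849 to 124317 CPM in rotenone livers and over 61503 to 130167 in DMSO livers. All 12 tested macrophage marker loci had a negative log2 fold change, with a median of -1.49, and 1 passed. The part of either list in the result was not tested.

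Brains showed no member called with rotenone, where 8.69% of genes were (32.5% without MC10). C7 came closest, with 4.89, 2.36, 3.11, 3.24 and 4.46 RPKM in rotenone brains, against 4.93, 6.27, 4.26, 5.62 and 9.78 RPKM in DMSO brains. The groups overlapped. For C7 the log2 fold change was -0.80 ± 0.26 (edgeR, adjusted p = 0.0671), and it passed without MC10 (-0.85, adjusted p = 0.0262) and by DESeq2 (-0.80, adjusted p = 0.0253). Brain cfh, called with age, had a log2 fold change of 0.02 ± 0.20 with rotenone (edgeR, adjusted p = 0.967).

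A difference of the rotenone response between liver and skin passed the test for 0 of the 7 members, where 0.122% of 19630 genes were called. For C7 liver minus skin was 1.02 ± 0.67 on the log2 scale (edgeR, adjusted p = 0.560), with an approximate 95% interval from -0.28 to 2.33. For cfh it was 0.44 ± 0.34 (adjusted p = 0.621), with an interval from -0.21 to 1.10. Both intervals treat the standard error as that of a normal spread, which by itself makes them slightly narrow for so few libraries. The fit also took the libraries as independent, although each of these fish gave both tissues. What this does to the width of the intervals was not tested. With the fish as a block the number of members called was again 0.

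Among the other complement and coagulation genes, those called with rotenone were all lower. In liver there were 5 of 55, or 9.09%, below the 26% of all genes (2336 higher and 2012 lower): C5AR1 (-1.24 ± 0.41), c1qc (-1.59 ± 0.56), cfhl4 (-0.78 ± 0.25), f5 (-0.66 ± 0.21), which encodes factor V, and f8 (-4.48 ± 1.35), which encodes factor VIII. In skin C5AR1 (-0.71 ± 0.19) and cfhl4 (-1.13 ± 0.35) were called of 55, or 3.64% where 12.3% of all genes were, and in brain c1qc (-0.88 ± 0.23) and proc (-1.55 ± 0.38), which encodes protein C, of 54, or 3.7% where 8.69% of all genes were. Their adjusted p lay between 0.0225 and 0.0496 by edgeR.

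Fin clips allowed the same fish to be compared at 20 and 10 weeks. Every 20-week clip came from a fish already clipped at 10 weeks, so age and earlier clipping cannot be told apart. Of the 7 loci 5 passed the filter on low counts, the fga loci being too rare. C4A and fgg were higher at 20 weeks, 2 of the 5 loci tested, where 24% of 18828 genes were called. C4A had a lowest, median and highest value of 6.47, 50.7 and 227 RPKM at 20 weeks, against 8.65, 32.4 and 92.2 RPKM at 10 weeks. It was higher at 20 weeks in 39 of 45 fish. The paired log2 fold change was 0.77 ± 0.14 (edgeR with the fish as a block, adjusted p = 3.52e-05).

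By lifespan, C4A was higher at 20 weeks in 12 of 15 fish of group3, 14 of 15 of group2 and 13 of 15 of group1. By batch, as the labels name it, it was higher in 26 of 30 fish of batch 1 (0.86 ± 0.15, adjusted p = 7.72e-05) and in 13 of 15 fish of batch 2 (0.55 ± 0.29, adjusted p = 0.216).

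**Figure D5:**
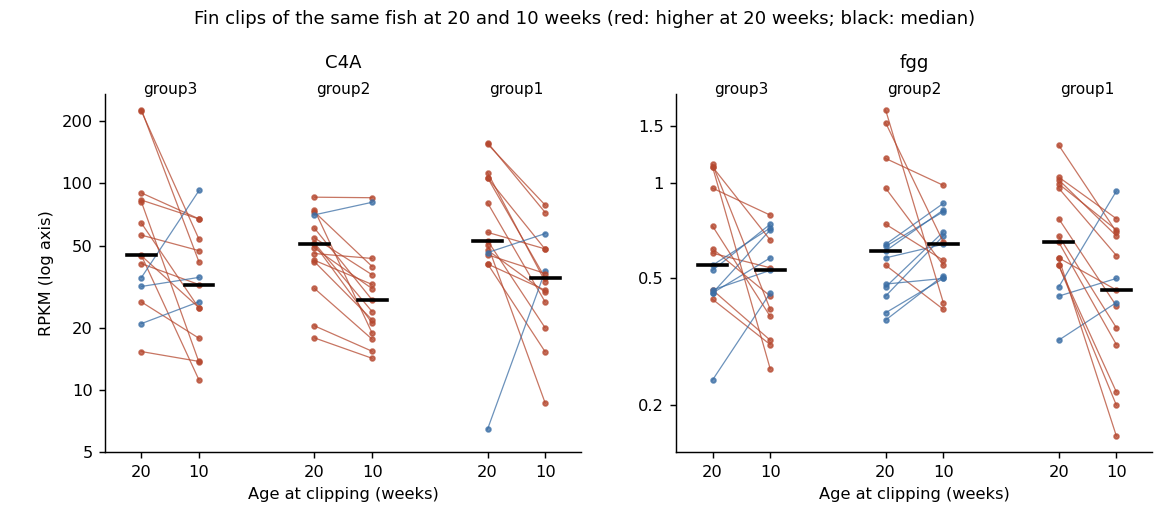
RPKM (log axes) of C4A and fgg in fin clips at 20 and 10 weeks, with a line for each of the 45 fish, red where the 20-week value is higher, and bars at group medians. C4A is higher at 20 weeks in 39 fish and fgg in 27.

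For fgg the batches differed in value, a difference that was not tested. Over all fish fgg had 0.240, 0.600 and 1.69 RPKM as lowest, median and highest value at 20 weeks, against 0.160, 0.540 and 0.980 RPKM at 10 weeks, and was higher in 27 of 45 fish. Its log2 fold change was 0.33 ± 0.11 (edgeR, adjusted p = 0.0297). In batch 2 the median was 1.02 RPKM at 20 weeks and 0.550 RPKM at 10 weeks, with 13 of 15 fish higher and a log2 fold change of 0.91 ± 0.19 (adjusted p = 0.00539). In batch 1 the medians were 0.550 RPKM at 20 weeks and 0.535 RPKM at 10 weeks, with 14 of 30 fish higher and a log2 fold change of 0.03 ± 0.11 (adjusted p = 0.874). The other tested members did not pass: cfh had a log2 fold change of 0.29 ± 0.18, c5 of 0.22 ± 0.11 and C7 of 0.21 ± 0.16.

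Of 36 related genes tested in fins, 5 were higher and 3 lower at 20 weeks, or 22.2% called, close to the 24% of all genes. The component C3, which the convertase built from C4 cleaves, is represented by several loci, of which c3a (Nfu_g_1_007235) rose by 1.15 ± 0.17 on the log2 scale (edgeR, adjusted p = 8.27e-07). The alternative pathway gene cfb (Nfu_g_1_011104) rose by 0.63 ± 0.22, and the regulators clu and SERPING1 by 0.30 ± 0.08 and 0.24 ± 0.08. The CFI locus that was lower at 12 weeks in liver and skin fell by 0.93 ± 0.18.

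Whether fins of later long-lived fish differed was asked by setting group3 against group1. No member and no other gene was called by edgeR or DESeq2 at 10 weeks, at 20 weeks or for the change between them (0% each), with 630, 674 and 320 genes at an unadjusted p under 0.05 by edgeR. C4A had log2 fold changes of -0.03 ± 0.30 at 10 weeks and 0.02 ± 0.32 at 20 weeks, with approximate 95% intervals from -0.62 to 0.56 and from -0.62 to 0.65. At 20 weeks its lowest, median and highest values were 15.4, 44.8 and 227 RPKM in group3, against 6.47, 52.8 and 157 RPKM in group1.

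Across the 40 livers, which share tissue and groups, the log2 CPM of the members correlated to different degrees. The fga loci followed each other with Pearson's r of 0.99, and the shorter one followed fgg with 0.96. Of the complement loci c5 followed cfh with r of 0.83 and C4A with 0.73, and C4A followed cfh with 0.74, whereas C4A and C7 had an r of 0.15. Between the families, cfh followed the longer fga locus with 0.70 and the shorter one with 0.67, and the other pairs of a complement and a fibrinogen locus had 0.41 to 0.60. Among 18323 other genes the 5 most like the shorter fga locus were fgb (0.98), f2 (0.93), cxadr (0.92), plg (0.91), which encodes plasminogen, and ctsf (0.89). Those most like c5 were c3a (Nfu_g_1_015843; 0.87), f5 (0.86), furina (0.86), C3 (8 of 9) (0.85) and cfb (Nfu_g_1_005173; 0.84). These are descriptions over libraries of several ages and treatments, with no test.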

How the data were processed

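RNA was extracted with QIAzol and made into libraries with Illumina's TruSeq RNA kit, per the labels' protocols. Demultiplexing with CASAVA (1.8.0 and 1.8.2) and bcl2fastq (1.8.4), alignment with TopHat2 (2.0.6) and counting with featureCounts (1.4.3-p1) are named in the submitters' processing notes. Which genome build, annotation and strand setting were used is not stated in the labels or file headers. The authors deposited a table of read counts per gene and a table of RPKM values for the same 185 libraries, per the file headers. Counts went into every test. The deposited RPKM values were used as levels only, and gene lengths were derived from both tables.

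Counts were scaled by TMM and filtered with filterByExpr, and the robust quasi-likelihood test of edgeR (4.0.16, R 4.3.3) was run across all genes of a fit, with Benjamini-Hochberg adjustment and a threshold of 0.05. Within a tissue the untreated ages shared a fit, and the DMSO and rotenone groups shared a separate one. Comparisons between tissues, and of liver minus skin, were fitted over the tissues together. Fin clips at 20 and 10 weeks were fitted with the fish as a block, and lifespan groups with the batch as a covariate. Same-numbered samples are the same fish, per the labels. The deviations of paired samples correlated with a median r of 0.107 over 45 fin pairs, 0.179 for liver and skin, 0.102 for liver and brain and 0.0367 for skin and brain. Fin pairs ran from -0.25 to 0.77. Unmatched pairs were not computed as a reference, so these values do not test the identity of the fish. Libraries of one group came from separate fish, and no pair of libraries agreed within sampling noise: the closest had a chi-square per degree of freedom of 11.1. The procedure was tested on simulated data. Alternatives were DESeq2 (1.42.0), its size factors in edgeR, no filter, only the compared groups, the fish as a block or not, single batches, and leaving out single libraries. Values were computed with Python 3.11.15, pandas 2.3.3, numpy 2.4.6 and scipy 1.17.1 and drawn with matplotlib 3.10.9.

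The members, the lists of related genes and the marker lists were chosen with earlier results of these data known. Of each list of related genes, up to 4 called genes per comparison with the smallest p are named, and of genes most like fga and c5 the 5 with the highest correlation. The table's own symbols were used, and of 25 hepatocyte and 12 macrophage marker symbols 13 and 6 were found.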

Additional observations from a re-analysis of the deposited data

Results flagged for a closer look

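In 20 of 133 sets of 5 libraries, 1 library lay far from the other 4 by the gap to its nearest neighbour relative to the whole range. Chance gives about 1 in 20 sets where values are normally spread and the sets are independent. Here the rule was applied to RPKM without a log scale, and several flags came from the same library. The count is therefore no measure of an excess over chance. All values are RPKM, and in 19 of the flagged sets the library was high.

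The 12-week skin of JM109 gave 6 of them. It had 605 for the shorter fga locus (4.54 to 7.11 in the others), 238 for the longer one (0.650 to 1.93), 280 for fgg (2.33 to 2.74), 41.6 for c5 (0.600 to 0.890), 54.2 for cfh (2.66 to 5.59) and 14 for C7 (3.97 to 6.43). Its summed hepatocyte markers were 18947 CPM.

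The 39-week skin of JM18 gave 3, with 33.8 for the shorter fga locus (2.12 to 7.20 in the others), 12.7 for fgg (1.58 to 4.04) and 6.70 for cfh (2.14 to 3.36). It also had the highest summed hepatocyte markers of its group, 1928 CPM. The 20-week skin of JM91 had 16.9 for the shorter fga locus (3.86 to 6.76), and that of JM84 had 10.7 for C7 (2.99 to 5.09). The skin of the 27-week DMSO fish MC9 had 6.32 for c5 (0.770 to 1.92).

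In livers, the rotenone fish MR26 had 5419 for the shorter fga locus (2951 to 3361 in the others) and 2716 for fgg (1417 to 1680). At 20 weeks JM75 had 632 for c5 (180 to 302) and 333 for C7 (86.1 to 140). C7 was also high at 12 weeks in JM115, with 152 (44.2 to 74.3), and in the 27-week DMSO fish MC9, with 369 (100.2 to 129). The 9-week DMSO fish MC1 had 542 for c5 (344 to 401). The single low value was that of C7 in the 9-week DMSO brain of MC5, with 1.25 (2.4 to 2.78).

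The log2 fold change of C4A at 39 over 5 weeks differed between the tissues: liver minus skin was -2.19 ± 0.73 (edgeR, adjusted p = 0.0267), and -2.10 ± 0.77 with the fish as a block (adjusted p = 0.121).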

How the results depend on the processing

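The number of called members stayed within 1.5 times its reported value under all alternatives run in 10 of 23 comparisons. With DESeq2, 2 members were called in skin at 12 against 5 weeks, 0 at 39 against 12 weeks and 2 over all ages, since 5 loci had no adjusted p there, and 1 in brain with rotenone. Without the count filter the numbers were 1 for liver over all ages, 0 for liver with rotenone and 1 for skin at DMSO 27 against 9 weeks. With only the compared groups in the fit they were 3 for skin at 12 against 5 weeks, 1 for skin at 39 against 12 weeks, 0 for brain at DMSO 27 against 9 weeks, 0 for liver with rotenone, and 1 for skin in either DMSO 27-week comparison. Without JM103 and JM100 they were 1 for liver at 12 against 5 weeks and 0 over all ages, and without MC7 and MC8 1 for liver with rotenone. Leaving out single libraries gave 2 to 4 for liver at 12 against 5 weeks, 0 to 2 for liver over all ages, 0 to 5 for liver with rotenone, 2 to 7 for skin at 12 against 5 weeks and over all ages, 0 to 5 for skin at 39 against 12 weeks, 1 to 3 for brain and skin at DMSO 27 against 9 weeks, 1 to 2 for skin with rotenone, 0 to 1 for brain with rotenone, 4 to 7 for skin against brain and 0 to 1 for liver minus skin at 39 over 5 weeks. With the fish as a block, chosen after seeing the data, that last number was 0. The cause was not tested.

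Signs turned in skin without JM109: at 12 over 5 weeks the log2 fold changes became -0.54 and -0.81 for the fga loci and -0.23 for fgg, and at 39 over 12 weeks they became 0.49 for c5, 0.15 for cfh, 1.25 and 0.24 for the fga loci and 1.04 for fgg. With other single libraries left out the values reached 4.29 and 4.92 for the fga loci and 4.58 for fgg at 12 over 5 weeks, and -3.45 for c5, -1.92 for cfh, -4.46 and -5.35 for the fga loci and -4.23 for fgg at 39 over 12 weeks. In fins 1 member was called without the fish as a block (fgg had adjusted p = 0.0575), 1 in batch 1 and 1 in batch 2. The block of the fish in tissue comparisons changed the calls of the fga loci in skin against brain, and in liver minus skin it changed that of C4A (-2.10, adjusted p = 0.121). No paired analysis was possible within a tissue because untreated ages, DMSO ages and rotenone groups share no fish there.

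Counts over all genes moved by more than 1.5 times in several comparisons. DESeq2 called 508 genes for liver at 39 against 12 weeks (edgeR 0), 4816 for liver over all ages (2277), 1319 for brain (420), 3151 for liver (2072) and 3239 for skin (2019) at DMSO 27 against 9 weeks, and 2841 for brain with rotenone (1750). Without JM103 and JM100, 1036 genes were called for liver at 12 against 5 weeks (2383), 1118 at 39 against 5 weeks (2111) and 732 over all ages. Without MC7 and MC8, 53 were called in liver at DMSO 27 against 9 weeks and 1884 with rotenone (4348), and without MC7 and MR30, 3577 and 3764 (2365) in skin. With only the compared groups, 3673 were called for liver at 12 against 5 weeks, 7 for brain and 1279 for liver at DMSO 27 against 9 weeks, and 802 for brain and 1348 for skin with rotenone. In fins batch 2 alone gave 2829 (4512). For rotenone in liver minus skin the 24 genes became 11 with DESeq2's size factors, 5 without the filter, 441 with DESeq2 and 0 with the fish as a block, and for 39 over 5 weeks in liver minus skin 4118 became 1405 with that block. Leaving out single libraries gave 1214 to 2634 for liver at 12 against 5 weeks, 0 to 118 at 39 against 12 weeks and 1107 to 3718 over all ages. At DMSO 27 against 9 weeks it gave 0.518% to 16.5% of genes in brain, 737 to 3894 genes in liver and 731 to 2425 in skin. With rotenone it gave 737 to 6584 in brain, 2740 to 4576 in liver, 1271 to 3177 in skin and 0 to 63 for liver minus skin. Leaving out JM103 and JM100 for C4A in liver minus skin, chosen after seeing the data, gave -2.41 (adjusted p = 0.0236).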

Other observations

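In 27 fish with both tissues sequenced, the deviations of a member from its group mean could be compared between liver and skin, over 7 members. JM109 was left out, and with a skin library only it forms no such pair. The 12 untreated fish were 4 of 39 weeks, 3 of 27, 2 of 20, 1 of 12 and 2 of 5 weeks. Permutations among them were not kept within an age, so their p are approximate. For C4A Pearson's r was 0.57 (permutation test, adjusted p = 0.00892) and Spearman's rho 0.47 (adjusted p = 0.0416), and r was 0.38 without the 2 fish farthest from the median. Within the 15 DMSO and rotenone fish r was 0.42 (permutation test, adjusted p = 0.287), and within the 12 untreated fish 0.65 (permutation test, adjusted p = 0.0370), with a rho of 0.48 (adjusted p = 0.134) and an r of 0.42 without the 2 farthest fish. The shorter fga locus had an r of -0.19 in the DMSO and rotenone fish (permutation test, adjusted p = 0.555) and 0.84 in the untreated fish (permutation test, adjusted p = 0.00399), so that no value over all fish describes it. The other fibrinogen loci had negative r in DMSO and rotenone fish, -0.55 for the longer fga locus and -0.33 for fgg (permutation test, adjusted p = 0.249 and 0.316), and 0.80 and 0.72 in untreated fish (permutation test, adjusted p = 0.00794 and 0.0204). For C7 r was 0.45 and rho 0.56 over all fish (permutation test, adjusted p = 0.0444 and 0.0197), with an r of 0.36 without the 2 farthest fish. Within DMSO and rotenone fish it was 0.36 and within untreated fish 0.54 (permutation test, adjusted p = 0.316 and 0.0839). Over all fish c5 had an r of 0.30 and cfh of 0.25 (permutation test, adjusted p = 0.151 and 0.209). Within DMSO and rotenone fish they had 0.43 and -0.08, and within untreated fish 0.34 and 0.40, none of which passed. The longer fga locus had 0.40 and fgg 0.33 over all fish (permutation test, adjusted p = 0.0658 and 0.133).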
